A study of Mus musculus with 233 samples.

Results

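Cyclic nucleotide phosphodiesterases were examined in striatal RNA of a mouse model of Huntington's disease, as 9 genes that the striatum expresses: Pde10a, Pde1b, Pde1a, Pde1c, Pde2a, Pde4b, Pde4d, Pde7b and Pde8b. They were chosen by symbol and matched to the Ensembl identifiers of the count table, where they are 9 of 41129 gene entries. Symbols matched for 8 of them. For Pde2a, the table lists ENSMUSG00000030653 on chromosome 7 (101410886 to 101512819, GRCm38, plus strand), which the reference annotation names Gm45837, while that annotation gives the symbol Pde2a to ENSMUSG00000110195. The latter identifier is not in the count table. Of the 4139 exonic bases of the listed entry, 3955 (95.6%) lie in Pde2a exons, so it is called the Pde2a-locus entry here, and reads of the 2 gene models cannot be told apart. Pde2a itself has 6149 exonic bases in that annotation, so the entry covers only a part of them. All 9 entries passed the filter on low counts in every fit.

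Phosphodiesterases hydrolyse the second messengers cAMP and cGMP, which adenylyl and guanylyl cyclases make, and so end signals from dopamine, adenosine and nitric oxide. In medium spiny neurons, the projection neurons that make up most of the striatum, cAMP made by the adenylyl cyclase Adcy5 activates protein kinase A, whose targets include the phosphatase inhibitor encoded by Ppp1r1b (DARPP-32). Pde10a is a dual-substrate enzyme that is highly enriched in medium spiny neurons, Pde1 enzymes are switched on by calcium and calmodulin, Pde2a is stimulated by cGMP, and Pde4, Pde7 and Pde8 enzymes hydrolyse cAMP. PDE10A is used as an imaging marker of the striatum in Huntington's disease.

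The mice were heterozygous zQ175DN animals (zQ175), whose Htt exon 1 is human sequence that carries an expanded CAG tract, and wild-type (WT) littermates of both sexes. Every mouse received adeno-associated virus in the striatum of both hemispheres, so no group was free of surgery and virus. The virus nZFP expressed the zinc finger repressor ZFP30645, aimed at expanded CAG repeats, from the human synapsin promoter, which is active in neurons, and the control virus DBD expressed the repressor without its DNA-binding domain from the same promoter. The other control virus, Estop, carried a stuffer that encodes neither protein nor mRNA. Injection and collection ages give the 5 paradigms their names: 2M_6M, 2M_8M, 6M_8M, 6M_10M and 6M_12M, with ages in months and 4, 6, 2, 4 and 6 months of treatment. The 2 genotypes and 3 viruses made 6 groups in each paradigm, 30 in all, with 6 to 8 libraries each, every library of a group from another mouse, and 233 libraries from 120 mice. Hemispheres were sequenced separately, and 113 mice gave 2 libraries with different viruses. Lists of 5 values keep the order of the paradigms above.

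Total gene counts ran from 27993227 to 61296096 per library (median 37385970). In 4 libraries the vector transcripts went against the label: in 6M_8M they were R7 and R8 of WT DBD and R5 of zQ175 nZFP, and WT DBD R6 in 2M_6M. A further 4 stood apart by the balance of long and short transcripts, measured as a length index, the mean log2 deviation in the longest of 5 length classes of transcripts minus that in the shortest. They were zQ175 DBD R3 in 2M_6M (-1.48), WT nZFP R8 in 6M_8M (-1.07), and zQ175 nZFP R2 (-1.54) and WT DBD R2 (-1.33) in 6M_10M, each more than 5 median absolute deviations below its paradigm's median. Htt counts, which sum over both alleles, differed between zQ175 nZFP and zQ175 DBD by -0.08, -0.32, -0.06, -0.45 and -0.07 (log2), with no paradigm past the threshold in edgeR's quasi-likelihood test (lowest adjusted p = 0.31). The expanded allele is not counted separately there, so the value does not check the labels. A list of 12 medium spiny neuron markers summed to 13071, 14178 and 15627 CPM (lowest, median and highest library) in WT DBD of 2M_6M and to 7446, 7843 and 9687 CPM in zQ175 DBD, and none of the 12 was at 0 in any group. In bulk tissue, fewer cells of a type and less RNA per cell cannot be told apart.

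Levels of different genes were compared per transcript length, in TPM (a unit scaled by transcript length and library total), in the 8 WT DBD libraries of 2M_6M. Pde1b was the most abundant phosphodiesterase transcript at 1155 ± 64.9 TPM (mean ± SD, n = 8), followed by Pde10a at 548 ± 75.5 TPM, the Pde2a-locus entry at 353 ± 23.8 TPM and Pde7b at 196 ± 25.5 TPM. These 4 occupied separate ranges in the 8 libraries. Pde4b at 111 ± 14.7 TPM, Pde6d at 110.0 ± 8.13 TPM and Pde8b at 98.8 ± 7.29 TPM followed, and each overlapped its neighbour in that order. Pde6d is no member and was listed by symbol, not by enzyme activity. Pde4d (19.1 ± 4.41 TPM), Pde1a (13.8 ± 2.70 TPM) and Pde1c (7.31 ± 1.29 TPM) formed a low group. Between these 3 lay Pde4a, Pde9a and Pde8a, at 18.8, 14.5 and 13.8 TPM. Pde4d, Pde4a, Pde9a, Pde1a and Pde8a each overlapped the next in the order, while Pde8a and Pde1c did not overlap. The plot of TPM by gene sets the members beside the 10 other genes with a phosphodiesterase symbol that passed the filter. Pde6a, Pde6b, Pde6c, Pde6g and Pde6h, subunits of the photoreceptor enzyme, averaged at most 0.0535 TPM and were not tested.

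**Figure D1:**
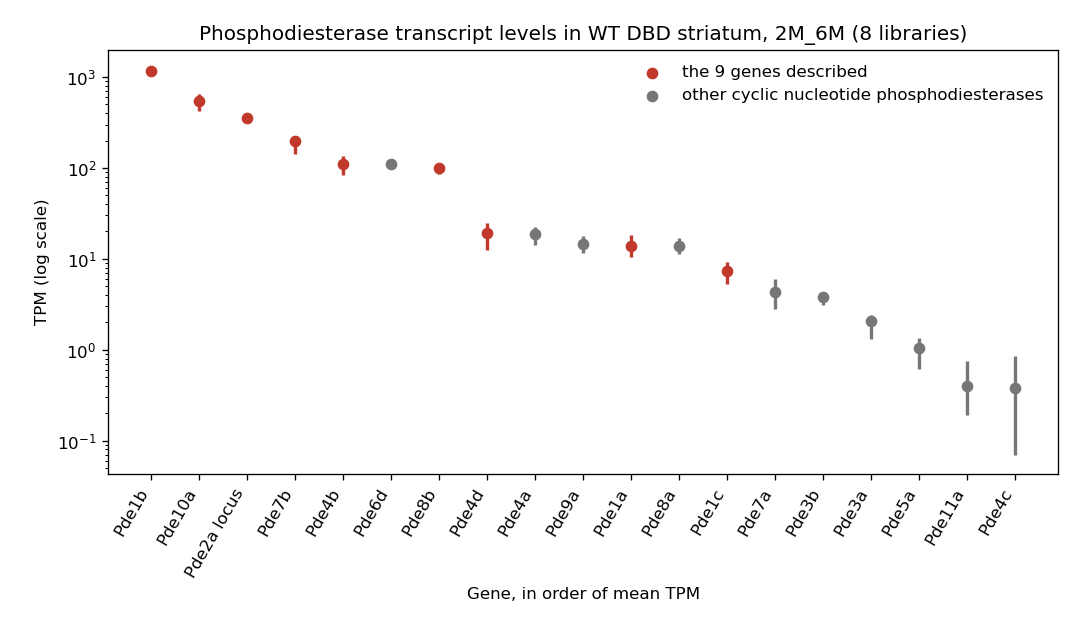
Level of each phosphodiesterase transcript in the 8 WT DBD libraries of 2M_6M, in TPM on a log axis; dots are means, lines run from the lowest to the highest library, red marks the 9 members and grey the 10 other tested genes. Pde1b, Pde10a, the Pde2a-locus entry and Pde7b lie at the top in separate ranges, with Pde1b at 1155 TPM and Pde7b at 196 TPM. The means of Pde4d, Pde1a and Pde1c lie under 20 TPM.

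The genotype effect was taken as zQ175 DBD minus WT DBD in each paradigm. Pde10a, Pde1b, Pde7b and the Pde2a-locus entry fell in 5 of 5 paradigms and Pde8b fell in 4, whereas Pde1a rose in 4 and Pde4d in 2. Pde1c and Pde4b passed in none. Over the 45 tests of 9 members in 5 paradigms, 24 were lower and 6 higher at an adjusted p under 0.05, against 9.48% lower and 10.3% higher among all gene tests of these fits. Normalised counts (CPM, scaled to library size) of zQ175 DBD and WT DBD did not overlap in 12 of the 45 tests, in 5 genes, against 4.86% of all gene tests. The median member log2 difference was -0.27, -0.22, -0.12, -0.20 and -0.31 in the 5 paradigms, beside -0.01 to 0.03 over all genes tested.

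Pde10a (ENSMUSG00000023868, chromosome 17, 8525372 to 8986648, GRCm38, plus strand) had the largest fall among the members in every paradigm. In 2M_6M, its lowest, median and highest levels were 1661, 1968 and 2238 CPM in WT DBD and 421, 886 and 1077 CPM in zQ175 DBD. In 2M_8M they were 1269, 1675 and 1996 CPM in WT against 659, 801 and 962 CPM in zQ175. All zQ175 libraries lay below all WT libraries in both paradigms of early injection. In 6M_8M the levels were 1041, 1835 and 2173 CPM in WT and 544, 899 and 1033 CPM in zQ175, and the lowest WT values, 1041 and 1105 CPM, belonged to R7 and R8 of WT DBD by label, whose vector transcripts went against it. For 6M_10M they were 817, 2058 and 2253 CPM against 824, 891 and 982 CPM, and for 6M_12M 1214, 1643 and 2209.6 CPM against 584, 825 and 876 CPM. The groups overlapped in 6M_10M alone, where the lowest WT library was R2, which stood apart by its length index. The log2 differences were -1.16, -1.05, -0.98, -1.09 and -1.14 (SE 0.11 to 0.16, adjusted p = 8.5e-11, 2.1e-08, 7.0e-05, 1.9e-07 and 4.1e-10), which leaves zQ175 at 44.9%, 48.4%, 50.8%, 47.1% and 45.2% of WT. Without the libraries that stood apart, the differences were -1.05 in 2M_6M, -0.98 in 6M_8M and -1.20 in 6M_10M, and without those that went against their label -1.19 in 2M_6M and -1.14 in 6M_8M.

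Pde1b (ENSMUSG00000022489, chromosome 15, 103503034 to 103530052, plus strand) encodes the calcium- and calmodulin-dependent enzyme found with Pde10a in medium spiny neurons. Its WT DBD libraries of 2M_6M read 1389.8, 1571 and 1733 CPM and its zQ175 DBD libraries 727, 916 and 1100.3 CPM. In 2M_8M the values were 1439.7, 1566 and 1758 CPM against 929, 950.0 and 1085 CPM, and in 6M_8M 933, 1328 and 1517 CPM against 663, 891 and 1017 CPM. The 6M_8M groups were the only overlapping ones for Pde1b, and there R7 and R8 of WT DBD by label, which carried the repressor transcript, were the lowest of WT at 933 and 965 CPM. For 6M_10M the levels were 1462, 1636 and 1761 CPM in WT and 892, 962 and 1005 CPM in zQ175, and for 6M_12M 1491, 1562 and 1873 CPM and 779, 932 and 1034 CPM. Log2 differences were -0.76, -0.70, -0.55, -0.76 and -0.81 (SE 0.04 to 0.09, highest adjusted p = 8.5e-05), or 59.1%, 61.5%, 68.2%, 58.9% and 57.2% of WT. Leaving out the libraries that went against their label gave -0.66 in 6M_8M. The plot of both genes by library shows every value behind these differences.

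**Figure D2:**
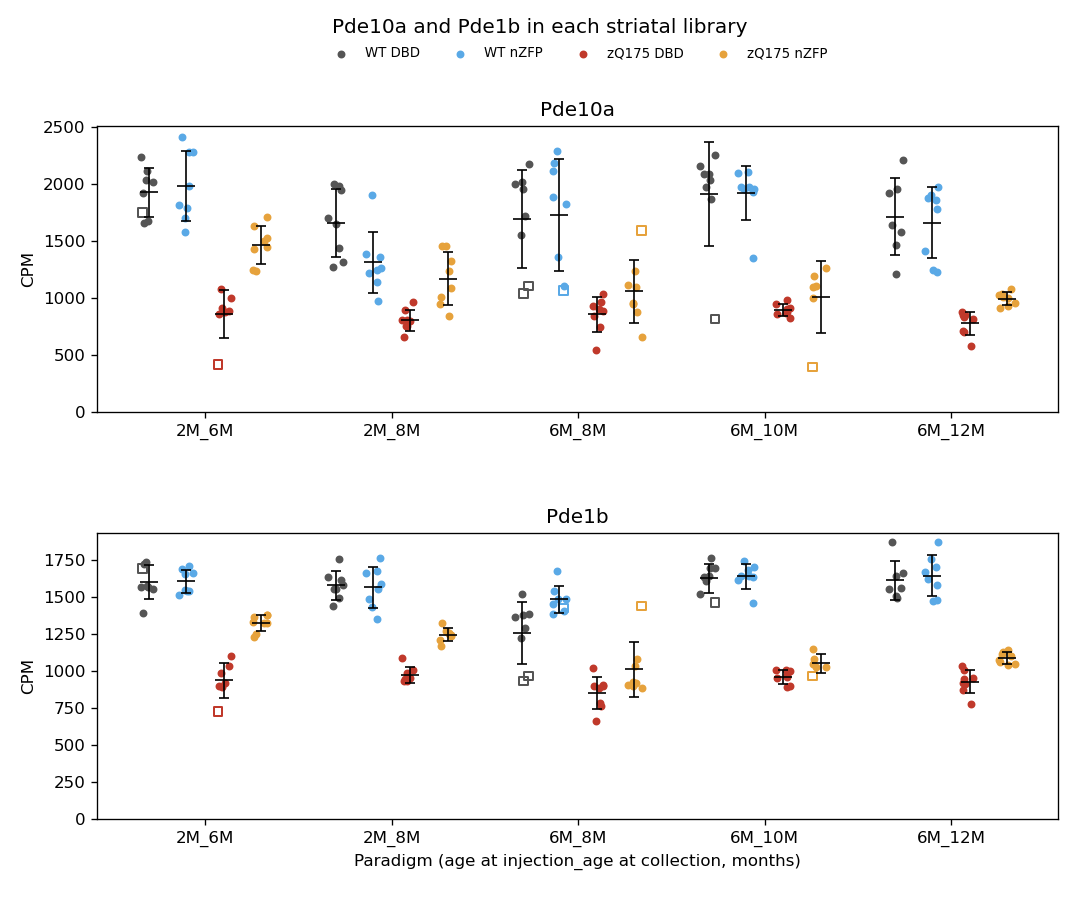
Pde10a and Pde1b in each DBD and nZFP library of the 5 paradigms, in CPM; points are libraries (WT DBD grey, WT nZFP blue, zQ175 DBD red, zQ175 nZFP orange), black bars are mean ± SD, and open squares mark libraries that stood apart by the length index or went against their label. In 2M_6M the zQ175 nZFP libraries lie above the zQ175 DBD libraries for both genes, from 1239 CPM up for Pde10a against 1077 CPM or less.

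A promoter window each of Pde10a, Pde1b and Pde7b, the 3 members with the largest falls, is shown. The windows were picked after the search because they hold a short CAG repeat unit, the letters of the repressor's target. RefSeq windows of 300 bases (250 before to 50 after a start site, GRCm38.p6) were matched for 9 of 9 symbols, 28 windows in all, among 32851 windows of the genome. The hexamer CAGCAG, searched on both strands and in capitals here, occurred in 10 of the 28, in Pde10a, Pde1a, Pde1b, Pde1c, Pde2a and Pde7b, a share close to the 31.6% of all windows. Among the members with falls in all 5 paradigms it was in 1 of 2 windows of Pde10a, 2 of 3 of Pde1b, 2 of 5 of Pde2a (not printed) and the 1 window of Pde7b. The windows printed lie at chr17:8849735-8850034 (plus strand, 1 of 2 Pde10a windows), chr15:103502784-103503083 (plus strand, 1 of 3 Pde1b windows) and chr10:20548279-20548578 (minus strand, the Pde7b window), each 5′ to 3′ along the gene.
Pde10a: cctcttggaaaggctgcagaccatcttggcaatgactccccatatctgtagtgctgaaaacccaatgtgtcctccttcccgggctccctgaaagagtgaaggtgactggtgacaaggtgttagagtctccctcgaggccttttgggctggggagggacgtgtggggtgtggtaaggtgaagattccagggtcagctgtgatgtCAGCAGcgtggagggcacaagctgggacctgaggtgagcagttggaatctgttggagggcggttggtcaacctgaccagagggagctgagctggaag
Pde1b: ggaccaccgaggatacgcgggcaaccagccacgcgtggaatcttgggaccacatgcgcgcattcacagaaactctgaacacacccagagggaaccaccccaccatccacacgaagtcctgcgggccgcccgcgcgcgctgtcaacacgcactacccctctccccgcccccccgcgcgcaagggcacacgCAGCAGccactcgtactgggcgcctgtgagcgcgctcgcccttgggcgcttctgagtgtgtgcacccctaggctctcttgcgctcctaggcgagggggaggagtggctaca
Pde7b: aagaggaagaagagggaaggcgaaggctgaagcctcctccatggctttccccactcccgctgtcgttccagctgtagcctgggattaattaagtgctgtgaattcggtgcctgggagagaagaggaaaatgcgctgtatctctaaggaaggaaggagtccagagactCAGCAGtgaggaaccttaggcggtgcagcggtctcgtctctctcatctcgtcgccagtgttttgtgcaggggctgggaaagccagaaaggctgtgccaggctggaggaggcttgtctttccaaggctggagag
Their GC content was 56.7%, 67.0% and 55.7%, beside a median of 52.7% over all windows. The cAMP response element TGACGTCA (a palindrome) was in none of the members' 28 windows and in 1.79% of all windows. Its half-site TGACG (either strand, and contained in the full element) was in 4 of 28, in Pde1a, Pde2a, Pde4b and Pde8b, and in 20.8% of all windows. The Egr motif GCGTGGGCG (either strand) was in none of the 28 and in 0.612% of all. Over all annotated transcripts of each member the longest run of CAG was 5 units in Pde7b, 3 in Pde4b and Pde8b and 2 in the other 6. These are matches of letters in fixed windows and transcripts, and binding was not measured.

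Pde7b (ENSMUSG00000019990, chromosome 10, 20398004 to 20725078, minus strand), a cAMP-specific enzyme, fell in all 5 paradigms by a smaller amount. WT DBD libraries of 2M_6M had 281, 334 and 363 CPM and zQ175 DBD libraries 51.1, 230.3 and 260.4 CPM, without overlap. Medians of the 5 paradigms were 334, 316, 322, 362 and 303 CPM in WT and 230.3, 242, 239.6, 249.8 and 235 CPM in zQ175. The log2 differences were -0.67, -0.47, -0.41, -0.42 and -0.53 (SE 0.10 to 0.14, highest adjusted p = 0.017). The lowest zQ175 value of 2M_6M belonged to R3, which stood apart, and without that library the difference was -0.50 (adjusted p = 2.1e-08). The 2M_6M call was lost in a fit of only the groups compared (-0.70, adjusted p = 0.061). Ranges of WT and zQ175 overlapped in the other 4 paradigms.

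The Pde2a-locus entry had a median of 685, 624, 636, 689 and 652 CPM in WT DBD and 571, 503, 547, 537 and 494 CPM in zQ175 DBD. Only in 2M_6M did the 2 groups not overlap, with 665, 685 and 744 CPM in WT and 245, 571 and 608 CPM in zQ175. The log2 differences were -0.39, -0.31, -0.23, -0.28 and -0.42 (SE 0.06 to 0.09, highest adjusted p = 0.015). The library at 245 CPM was R3, which stood apart, and without it the 2M_6M difference was -0.28 (adjusted p = 5.7e-06). A fit of only the groups compared lost that call (-0.41, adjusted p = 0.067). Pde8b (ENSMUSG00000021684, chromosome 13, 95024454 to 95250336, minus strand), another cAMP-specific enzyme, differed by -0.27, -0.22, -0.10, -0.20 and -0.31 (SE 0.04 to 0.07) and passed in all paradigms except 6M_8M (adjusted p = 0.42). Its groups did not overlap in 2M_8M, with 150.2, 161 and 174 CPM in WT against 129, 138 and 145 CPM in zQ175, or in 6M_12M, with 157, 171 and 185 CPM against 131, 137 and 146 CPM. The differences of these 2 genes were small beside those of Pde10a, and their SEs were small too.

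Pde1a and Pde4d moved the other way. Pde1a (ENSMUSG00000059173, chromosome 2, 79834453 to 80129458, minus strand), a calmodulin-dependent enzyme like Pde1b, had medians of 23.3, 23.4, 30.7, 22.2 and 24.4 CPM in WT DBD and 29.3, 33.2, 37.3, 31.8 and 33.9 CPM in zQ175 DBD, and the 2 groups overlapped in every paradigm. It rose by 0.41, 0.52, 0.49 and 0.48 (log2, SE 0.10 to 0.13, highest adjusted p = 0.011) in the paradigms other than 6M_8M, where the value was 0.28 (SE 0.28, adjusted p = 0.62). In a fit of only the groups compared the 2M_6M rise did not pass (0.38, adjusted p = 0.10). Pde4d (ENSMUSG00000021699, chromosome 13, 108449948 to 109953461, plus strand), of the rolipram-sensitive cAMP-specific class, had medians of 24.0, 21.9, 28.9, 25.7 and 19.5 CPM in WT and 31.7, 32.8, 33.4, 34.1 and 32.7 CPM in zQ175. It rose in 2M_8M by 0.50 (SE 0.17, adjusted p = 0.032) and in 6M_12M by 0.55 (SE 0.16, adjusted p = 0.013), the latter call lost in a fit of only the groups compared (0.55, adjusted p = 0.069). In 2M_6M its difference was 0.27 (SE 0.16, adjusted p = 0.20), and without zQ175 DBD R3, the lowest library there, 0.41 (adjusted p = 0.013). In 6M_10M it was 0.42 (SE 0.19, adjusted p = 0.11), and without WT DBD R2 and zQ175 nZFP R2 0.32 (adjusted p = 0.033). Markers of cortical projection neurons were low in all these libraries, but their sums were higher in zQ175 DBD than in WT DBD. The 6 markers summed to medians of 9.38, 6.98, 11.1, 8.43 and 8.44 CPM in WT DBD and 12.9, 11.9, 17.3, 13.4 and 16.2 CPM in zQ175 DBD, with a range of 4.01 to 18.1 CPM in WT and 4.58 to 42.2 CPM in zQ175. None of the 6 was at 0 in all libraries of a group, and the part of these cells in the Pde1a and Pde4d values was not tested.

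Summed markers of glia and vessels also differed in median between the genotypes. The medians of 6 astrocyte markers were 2936, 2999, 3146, 3153 and 3048 CPM in WT DBD and 2246, 2483, 2519.7, 2514 and 2565 CPM in zQ175 DBD, with ranges of 1485 to 3771 CPM and 1338 to 2938 CPM. Those of 6 oligodendrocyte markers were 7907, 7869.6, 8715, 7970.3 and 7048 CPM in WT and 6620.0, 6767, 6377, 6887 and 6537 CPM in zQ175, with ranges of 5669.9 to 11889.7 CPM and 5198 to 10486 CPM. Medians of 6 endothelial markers were 276, 316, 274, 311 and 295 CPM against 238, 283, 248, 267 and 263 CPM, and of 6 microglial markers 506, 606, 519, 558 and 597 CPM against 463, 523, 463, 498 and 505 CPM. All 4 sums thus had the lower median in zQ175 DBD in each paradigm, their ranges overlapped, and none of these markers was at 0 in all libraries of a group. At most 1 of 6 astrocyte markers and 2 of 6 in the other lists passed as lower in any paradigm, beside 5.15% to 12.3% of all genes. The part of these cells in the member values was not tested.

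Pde1c (ENSMUSG00000004347, chromosome 6, 56069804 to 56569103, minus strand) and Pde4b (ENSMUSG00000028525, chromosome 4, 102087543 to 102607259, plus strand) complete the set. Pde1c had medians of 26.8, 27.4, 31.3, 31.2 and 31.0 CPM in WT DBD and 24.9, 25.7, 28.0, 31.7 and 26.3 CPM in zQ175 DBD, with differences of -0.12, -0.07, -0.11, 0.05 and -0.23 (SE 0.09 to 0.12, lowest adjusted p = 0.19). Pde4b had medians of 175, 179.5, 174, 181 and 162 CPM and 165, 161, 160.0, 169 and 155 CPM, with differences of -0.13, -0.14, -0.12, -0.05 and -0.16 (SE 0.06 to 0.08, lowest adjusted p = 0.076). The 2 groups overlapped in every paradigm for both genes. For Pde4b all 5 values were below 0, and 1 passed without the library labelled WT DBD R6, which carried little of the vector's WPRE element (2M_6M, -0.16, adjusted p = 0.044).

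The same contrast was measured in the Estop hemispheres, zQ175 Estop minus WT Estop, whose libraries do not enter the DBD groups but come in part from the other hemisphere of the same mice. There 23 of 45 member tests were lower and 5 higher, against 8.89% and 9.43% of all gene tests. Pde10a differed by -0.89 in 6M_8M, where its difference was smallest, to -1.15 in 6M_10M (SE 0.11 to 0.16), Pde1b by -0.66, -0.76, -0.59, -0.73 and -0.81 (SE 0.04 to 0.09) and Pde7b by -0.46, -0.45, -0.37, -0.48 and -0.45 (SE 0.10 to 0.14), and all 3 fell in 5 of 5 paradigms. The Pde2a-locus entry fell in 4 paradigms, with 6M_8M at -0.17 (SE 0.06, adjusted p = 0.066). Its 2M_6M call was lost without the filter on low counts (-0.26, adjusted p = 0.053), and the Pde7b call of 6M_12M in a fit of only the groups compared (-0.44, adjusted p = 0.068). Pde1a rose in 4, by 0.53, 0.56, 0.46 and 0.45, and its value in 6M_8M was 0.11. Pde4d rose in 1 of 5, 2M_6M (0.52, SE 0.16, adjusted p = 0.015), and its 2M_8M and 6M_12M values, 0.35 (SE 0.18, adjusted p = 0.20) and 0.34 (SE 0.16, adjusted p = 0.16), missed the threshold. The Pde4d call thus moved between paradigms with the control virus.

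The repressor effect was taken as zQ175 nZFP minus zQ175 DBD, a comparison that shares its zQ175 DBD libraries with the genotype effect. In 2M_6M, Pde10a, Pde1b, the Pde2a-locus entry, Pde7b and Pde8b rose. Pde10a and Pde1b also rose in 2M_8M, and Pde1b and the Pde2a-locus entry in 6M_12M. The 45 tests gave 9 higher and 0 lower calls, against 2.84% higher and 3.65% lower of all gene tests. At an unadjusted p under 0.05 edgeR gave 14 higher and 2 lower, and DESeq2 called 9 higher and 0 lower. At that unadjusted level edgeR had 5772, 3195, 764, 1971 and 1731 genes in either direction, of 15673, 15786, 16000, 15840 and 15523 tested. By paradigm the higher calls were 5, 2, 0, 0 and 2 of 9, beside 8.8%, 4.16%, 0.0438%, 0.562% and 0.676% of all genes. At an unadjusted p under 0.05 both edgeR and DESeq2 had 2 members in 6M_8M and 1 in 6M_10M, all higher. In 6 of the 45 tests, in 3 genes, nZFP and DBD did not overlap, against 1.37% of all gene tests.

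Pde10a in zQ175 nZFP of 2M_6M had 1239, 1476 and 1709.5 CPM, above every zQ175 DBD library, which reached 1077 CPM. In 2M_8M it had 841, 1164 and 1457 CPM, overlapping zQ175 DBD. The rise was 0.76 (SE 0.11, adjusted p = 3.2e-06) in 2M_6M, and in 2M_8M it was 0.55 (SE 0.13, adjusted p = 0.0037). Without zQ175 DBD R3 the 2M_6M rise was 0.65 (adjusted p = 9.5e-07). After injection at 6 months the zQ175 nZFP levels were 655, 1028 and 1592 CPM in 6M_8M, 398, 1099 and 1268 CPM in 6M_10M and 918, 1006 and 1082 CPM in 6M_12M. Their differences from zQ175 DBD, 0.30, 0.17 and 0.36 (SE 0.11 to 0.16, adjusted p = 1.00, 0.63 and 0.14), did not pass. In 6M_12M all zQ175 nZFP libraries nevertheless lay above all zQ175 DBD libraries. A fit with the mouse as a block compares the 2 hemispheres of a mouse, and pairs that hold Estop enter it beside pairs of nZFP and DBD. In 6M_12M the value passed with that block (0.31, adjusted p = 0.011). It passed as well with the length index as a covariate (0.26, adjusted p = 1.6e-04) and in a fit of only the groups compared (0.35, adjusted p = 0.017). Without zQ175 nZFP R2, the lowest library of 6M_10M, the difference there was 0.33 (adjusted p = 0.055).

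Pde1b in zQ175 nZFP reached 1232, 1327 and 1379.6 CPM in 2M_6M and 1171, 1245 and 1321 CPM in 2M_8M, both entirely above zQ175 DBD. It rose by 0.48 (SE 0.05, adjusted p = 6.5e-09) in the former and 0.36 (SE 0.05, adjusted p = 4.2e-07) in the latter. In 6M_12M the levels were 1040.3, 1086 and 1141 CPM, again without overlap, and the rise was 0.23 (SE 0.05, adjusted p = 0.012). That call ended when Estop took the place of DBD as control (0.09, adjusted p = 0.56). The value in 6M_8M was 0.24 (SE 0.09, adjusted p = 0.74), and 6M_10M gave 0.13 (SE 0.04, adjusted p = 0.19). The highest zQ175 nZFP library of 6M_8M, at 1437 CPM, was R5, which went against its label, and without the 3 such libraries of 6M_8M the difference was 0.15 (adjusted p = 1.00).

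Calls of the other 3 members that rose with the repressor ended under more alternatives. The Pde2a-locus entry rose by 0.44 (SE 0.09, adjusted p = 2.9e-04) in 2M_6M, where zQ175 nZFP had 679, 717 and 776 CPM, above every zQ175 DBD library, and by 0.31 (SE 0.08, adjusted p = 0.036) in 6M_12M. Without zQ175 DBD R3 the 2M_6M rise was 0.32 (adjusted p = 1.3e-06), and it did not pass in a fit of only the groups compared (0.44, adjusted p = 0.070). In 6M_10M the entry was at 0.11 (SE 0.09, adjusted p = 0.55), and without zQ175 nZFP R2 and WT DBD R2 it passed (0.22, adjusted p = 7.6e-04). The 6M_12M call was lost without the low-count filter (0.32, adjusted p = 0.070). With Estop as control the values of 2M_6M and 6M_12M were 0.13 (adjusted p = 0.39) and 0.08 (adjusted p = 0.68). Pde7b rose in 2M_6M by 0.43 (SE 0.14, adjusted p = 0.023), a call lost in a fit of only the groups compared (0.44, adjusted p = 0.24), with the mouse block (0.41, adjusted p = 0.26) and with Estop (0.19, adjusted p = 0.46). Without zQ175 DBD R3 its rise was 0.26 (adjusted p = 0.0030). Pde8b rose in 2M_6M by 0.14 (SE 0.05, adjusted p = 0.041), a call that 7 of 12 alternatives ended, among them the mouse block (0.11, adjusted p = 0.25) and leaving out zQ175 DBD R3 (0.10, adjusted p = 0.17). When Estop served as the control instead, 4 of the 9 higher calls held, those of Pde10a and Pde1b in 2M_6M and 2M_8M. Pde1a, Pde1c, Pde4b and Pde4d passed in no paradigm. Their values were -0.15, -0.29, 0.13, -0.09 and -0.10 for Pde1a, 0.06, -0.07, 0.03, -0.19 and 0.09 for Pde1c, 0.06, 0.00, 0.04, -0.10 and 0.02 for Pde4b and 0.14, -0.39, 0.12, -0.06 and 0.17 for Pde4d, with a lowest adjusted p of 0.065.

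Length indices moved with the groups in 2M_8M. Their medians were 0.22 in WT DBD, -0.36 in WT nZFP, 0.39 in zQ175 DBD and -0.16 in zQ175 nZFP, so that nZFP libraries had the lower values in both genotypes. With the index as a covariate the repressor rises of 2M_8M were 0.67 (adjusted p = 2.7e-08) for Pde10a and 0.39 (adjusted p = 5.7e-10) for Pde1b. With the mouse block the Pde2a-locus entry passed in 2M_8M (0.26, adjusted p = 0.012). The covariate brought the Pde2a-locus entry (0.26, adjusted p = 1.5e-06) and Pde7b (0.25, adjusted p = 1.2e-05) past the threshold there.

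**Figure D3:**
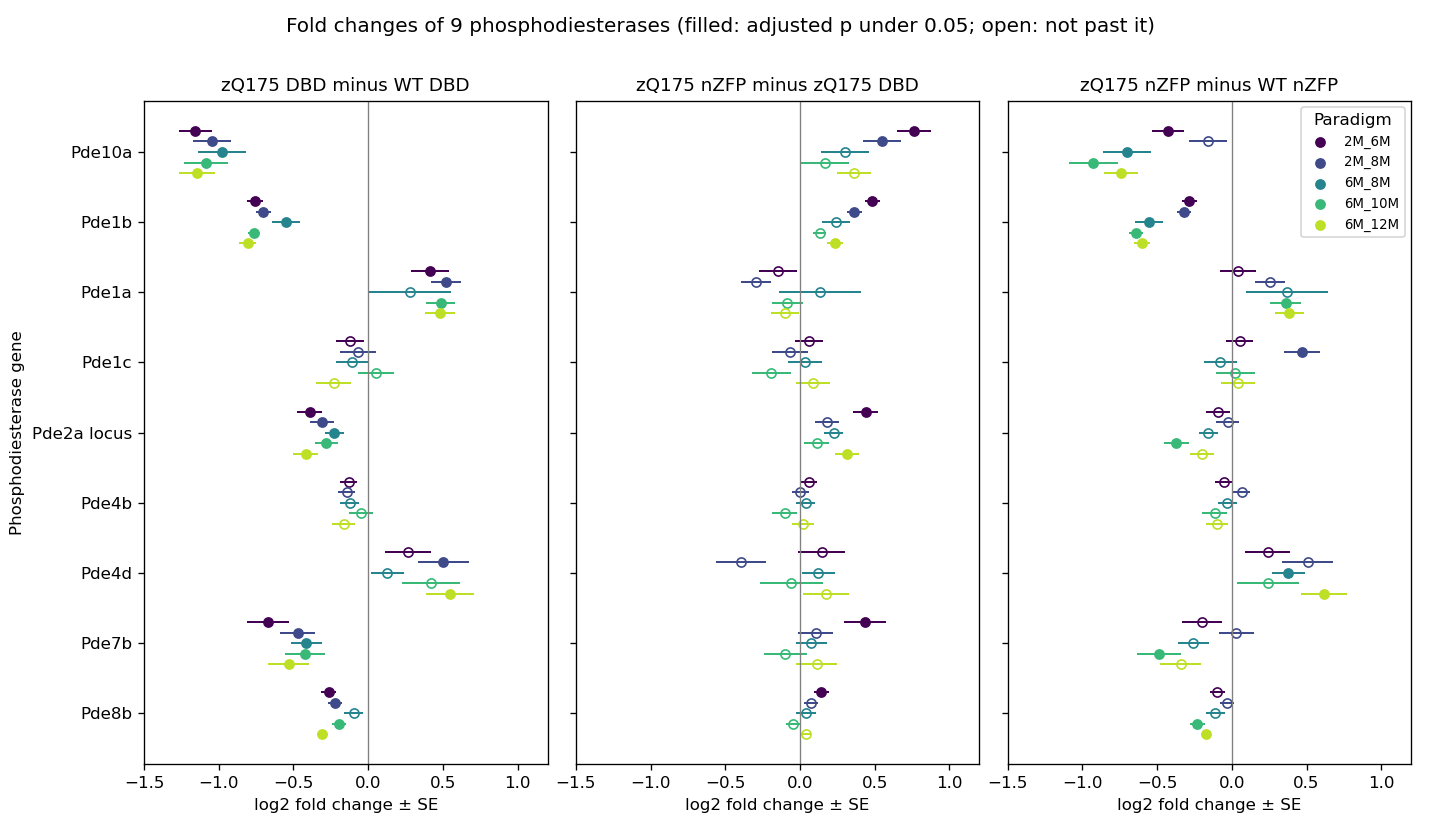
Log2 fold changes of the 9 members in the 5 paradigms, in panels for the genotype effect, the repressor effect in zQ175 and the remaining difference; points are edgeR estimates, bars are SEs, and filled points have an adjusted p under 0.05. Pde10a and Pde1b lie below 0 in every paradigm of the genotype and remaining panels and above 0 in every paradigm of the repressor panel, where 2 of 5 and 3 of 5 points are filled.

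The remaining difference was taken as zQ175 nZFP minus WT nZFP. Its zQ175 nZFP libraries are shared with the repressor effect, and it asks how far the members of repressor-treated zQ175 striatum lay from WT striatum given the same virus. Pde1b was lower in 5 of 5 paradigms and Pde10a in 4. Over 45 tests, 13 were lower and 5 higher, against 6.11% and 6.21% of all gene tests. Groups did not overlap in 10 tests, in 5 genes, against 2.55% of all gene tests. Lower calls came from Pde10a, Pde1b, Pde7b, Pde8b and the Pde2a-locus entry, and higher calls from Pde1a, Pde1c and Pde4d.

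Pde10a in WT nZFP had 1582, 1897 and 2407 CPM in 2M_6M and 979, 1254 and 1905 CPM in 2M_8M, overlapping zQ175 nZFP in both. In 6M_8M the WT nZFP levels were 1066, 1852 and 2292 CPM. In 6M_10M they were 1356, 1964 and 2107 CPM and in 6M_12M 1233, 1819 and 1974 CPM, above all zQ175 nZFP libraries in both. The log2 differences were -0.43, -0.16, -0.70, -0.93 and -0.74 (SE 0.11 to 0.16, adjusted p = 0.025, 0.50, 0.0018, 3.6e-05 and 4.9e-06), which put zQ175 nZFP at 74.4%, 89.7%, 61.5%, 52.6% and 59.8% of WT nZFP. The value of 2M_8M did not pass without the length index and passed with it (-0.29, adjusted p = 0.0098). WT nZFP of 2M_8M had a median of 1254 CPM, lower than the 1675 CPM of WT DBD. In 6M_10M the difference without zQ175 nZFP R2 and WT DBD R2 was -0.77 (adjusted p = 2.3e-08).

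Pde1b in WT nZFP had medians of 1599, 1570.1, 1468, 1641 and 1647 CPM and in zQ175 nZFP 1327, 1245, 924, 1038 and 1086 CPM. The groups did not overlap in any paradigm except 6M_8M. Differences of -0.28, -0.32, -0.55, -0.64 and -0.60 (SE 0.04 to 0.09, adjusted p = 8.3e-04, 1.5e-05, 4.5e-05, 1.0e-14 and 1.6e-11) left zQ175 nZFP at 82.2%, 80.2%, 68.2%, 64.1% and 65.9% of WT nZFP. Pde1b was thus nearer to WT in the 2 paradigms injected at 2 months, where it was above 80%, than in the 3 injected at 6 months, where it was below 70%. Age at collection, months of treatment and mice also vary among these paradigms, and that contrast was not tested for the remaining difference.

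Pde7b differed in the remaining comparison by -0.20, 0.03, -0.26, -0.49 and -0.34 (SE 0.10 to 0.15) and passed in 6M_10M alone (adjusted p = 0.014), where zQ175 nZFP had 97.5, 259 and 276 CPM and WT nZFP 288, 326 and 363 CPM. Without the libraries that stood apart it also passed in 2M_6M (-0.21, adjusted p = 0.023) and 6M_8M (-0.32, adjusted p = 0.032). The 6M_10M call of Pde7b was lost in a fit of only the groups compared (-0.49, adjusted p = 0.094), and without zQ175 nZFP R2, its lowest library, the value was -0.34 (adjusted p = 5.8e-05). The Pde2a-locus entry fell in 6M_10M by 0.37 (SE 0.09, adjusted p = 0.0014). Pde8b fell in 6M_10M by 0.23 (SE 0.05, adjusted p = 6.4e-04) and in 6M_12M by 0.17 (SE 0.04, adjusted p = 4.0e-04), without overlap in either paradigm. R2 was again the lowest zQ175 nZFP library of 6M_10M for both genes. Without the libraries that stood apart these 6M_10M values were -0.27 (adjusted p = 3.2e-06) for the Pde2a-locus entry and -0.19 (adjusted p = 3.9e-04) for Pde8b. In a fit of only the groups compared both calls were lost, at -0.37 (adjusted p = 0.059) for the former and -0.23 (adjusted p = 0.053) for the latter. The Pde2a-locus entry of 6M_8M passed without WT nZFP R8 (-0.20, adjusted p = 0.017). The Pde8b levels were 139, 142 and 145 CPM in zQ175 nZFP of 6M_12M and 148, 161 and 168 CPM in WT nZFP.

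Among the members that were higher, Pde4d rose in 6M_8M by 0.38 (SE 0.11, adjusted p = 0.014) and in 6M_12M by 0.62 (SE 0.16, adjusted p = 0.0040). Without WT nZFP R8, its lowest library, the 6M_8M value was 0.29 (adjusted p = 0.042), and 6M_10M passed without the libraries that stood apart there (0.45, adjusted p = 0.0075). In 6M_12M its zQ175 nZFP libraries had 29.5, 33.8 and 40.9 CPM and its WT nZFP libraries 12.8, 21.2 and 28.9 CPM, without overlap. Pde1a rose in 6M_10M by 0.36 (SE 0.10, adjusted p = 0.011) and in 6M_12M by 0.38 (SE 0.10, adjusted p = 0.0039). The cortical projection neuron markers summed to medians of 10.9, 6.17, 15.8, 12.3 and 16.3 CPM in zQ175 nZFP of the 5 paradigms. In WT nZFP the medians were 10.1, 5.64, 12.3, 9.29 and 7.41 CPM, and the ranges overlapped in every paradigm. The part of these markers in the Pde1a and Pde4d values was not tested. Pde1c was called in 2M_8M alone, at 0.47 (SE 0.12, adjusted p = 0.010), with 19.0, 25.2 and 33.4 CPM in zQ175 nZFP and 16.1, 17.8 and 22.6 CPM in WT nZFP. Pde1c in WT DBD of 2M_8M had 18.8, 27.4 and 35.2 CPM, a higher median than in WT nZFP.

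**Figure D4:**
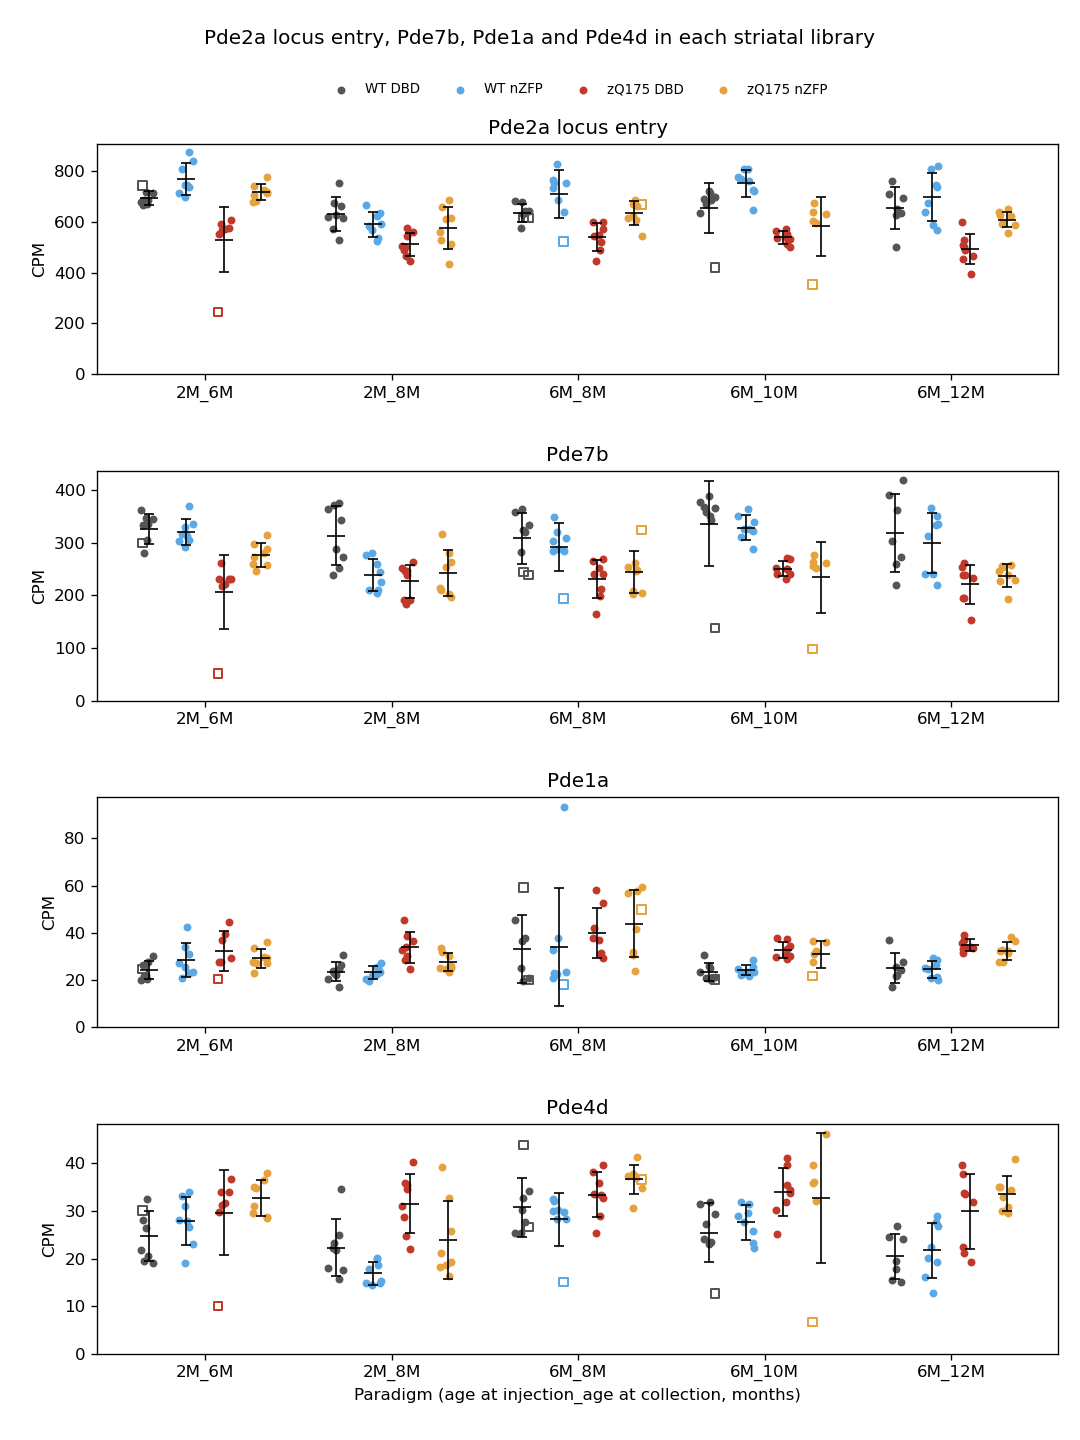
The Pde2a-locus entry, Pde7b, Pde1a and Pde4d in each DBD and nZFP library of the 5 paradigms, in CPM. Colours, bars and open squares are those of the plot of Pde10a and Pde1b by library. Pde7b and the Pde2a-locus entry lie lower in zQ175 DBD than in WT DBD and Pde1a lies higher, with medians of 230.3 against 334 CPM for Pde7b in 2M_6M.

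In WT mice, nZFP minus DBD gave 2 lower and 0 higher calls among 45 member tests, against 0.568% lower of all gene tests, and both were in 2M_8M. At an unadjusted p under 0.05 edgeR gave 7 lower and 3 higher, and DESeq2 called 3 lower and 0 higher. Among the 15673, 15786, 16000, 15840 and 15523 genes tested, 612, 4530, 2458, 1311 and 588 reached that unadjusted level in edgeR in either direction. Pde1c fell by 0.61 (SE 0.12, adjusted p = 0.0029), and against Estop its value was -0.25 (adjusted p = 0.34). Pde4b fell by 0.21 (SE 0.06, adjusted p = 0.038), and 5 of 12 alternatives ended that call, with the mouse block at -0.18 (adjusted p = 0.064). The other control gave -0.14 (adjusted p = 0.29). Pde7b in the same groups was at -0.40 (SE 0.12, adjusted p = 0.052) and Pde10a at -0.34 (SE 0.13, adjusted p = 0.097). These are the WT groups whose length indices differed in median, 0.22 against -0.36. With the index as a covariate, Pde1c was at -0.35 (adjusted p = 0.0020) and Pde4b at -0.14 (adjusted p = 0.12). Pde10a and Pde1b values in WT were 0.04, -0.34, 0.03, 0.01 and -0.04 and 0.01, -0.02, 0.24, 0.01 and 0.03, none past the threshold.

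Whether the repressor effect differed between genotypes was tested as an interaction, the repressor effect in zQ175 minus that in WT. It gave 4 higher and 0 lower calls of 45, against 0.716% higher of all gene tests. Unadjusted, edgeR gave 15 higher and 1 lower, and DESeq2 called 4 higher and 0 lower. Of the 15673, 15786, 16000, 15840 and 15523 genes tested, 2941, 1950, 710, 2374 and 643 had an unadjusted edgeR p under 0.05 in either direction. The Pde10a interaction was 0.73 (SE 0.15, adjusted p = 0.0036) in 2M_6M, beside 0.89 (SE 0.18, adjusted p = 0.0021) in 2M_8M. For Pde1b it was 0.48 (SE 0.07, adjusted p = 6.4e-05) in the former and 0.38 (SE 0.07, adjusted p = 3.6e-04) in the latter. The nZFP minus DBD value was thus higher in zQ175 than in WT for both genes in both paradigms of early injection. In 2M_8M the Pde10a value was 0.55 in zQ175 and -0.34 in WT, so both enter its interaction there. With the mouse block the Pde10a interaction of 2M_6M was 0.79 (adjusted p = 0.057). The block brought Pde7b past the threshold in 2M_8M (0.47, adjusted p = 0.0062, and 0.50 with adjusted p = 0.12 without it). In the other 3 paradigms the values were 0.27, 0.16 and 0.40 for Pde10a and -6.8e-05, 0.12 and 0.21 for Pde1b, and none passed. Those of 6M_8M include the 3 libraries that went against their label, R7 and R8 of WT DBD and R5 of zQ175 nZFP.

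The 2 control viruses were compared as DBD minus Estop. In zQ175, 2 of 45 member tests were lower and 0 higher, against 0.335% lower of all gene tests, and both calls were in 2M_6M. Pde1b was at -0.22 (SE 0.05, adjusted p = 0.029) and the Pde2a-locus entry at -0.31 (SE 0.09, adjusted p = 0.042). Without zQ175 DBD R3 these values were -0.17 (adjusted p = 0.14) and -0.18 (adjusted p = 0.050), and with the mouse block -0.25 (adjusted p = 0.15) and -0.38 (adjusted p = 0.12). In 6M_12M the Pde2a-locus entry was at -0.23 (SE 0.08, adjusted p = 0.66), and with the mouse block it passed (-0.27, adjusted p = 0.0095). In WT, edgeR and DESeq2 called 0 members in either direction, against 0.169% lower of all gene tests. At an unadjusted p under 0.05 edgeR gave 6 lower and 1 higher there. That level was reached by 647, 739, 1054, 1381 and 582 of the 15673, 15786, 16000, 15840 and 15523 genes tested, in either direction. The lower zQ175 DBD levels of 2M_6M enter both the genotype and the repressor effect of that paradigm. In the main fits Pde1b was below 0 in 5 of 5 paradigms of both genotypes, at -0.22 to -0.08 in zQ175 and -0.19 to -0.11 in WT. So were the Pde2a-locus entry (-0.31 to -0.12 and -0.23 to -0.08) and Pde8b (-0.087 to -0.0047 and -0.084 to -0.025). Pde10a was below 0 in 5 paradigms in zQ175 and 3 in WT. The other members had both signs in each genotype.

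Repressor effects were compared between paradigms in a fit of all 30 groups. The paradigms 2M_6M and 6M_10M share 4 months of treatment. They differ in age at injection, in age at collection (6 and 10 months) and in the mice, which cannot be told apart. In no pair of paradigms compared here did age at injection differ alone. For 2M_6M minus 6M_10M, 3 of 9 members were higher, against 2.57% of all genes. The differences were 0.60 (SE 0.20, adjusted p = 0.036) for Pde10a, 0.37 (SE 0.09, adjusted p = 0.0037) for Pde1b and 0.33 (SE 0.12, adjusted p = 0.043) for the Pde2a-locus entry. Libraries that stood apart belong to both paradigms. Without them the 3 values were 0.32 (adjusted p = 0.89), 0.30 (adjusted p = 0.30) and 0.10 (adjusted p = 0.98), and none passed. With the mouse block none passed either, at 0.75 (adjusted p = 0.34), 0.31 (adjusted p = 0.34) and 0.40 (adjusted p = 0.35). The calls of this difference between paradigms thus depended on the libraries and the block used. At 6 months of treatment, 2M_8M minus 6M_12M, edgeR and DESeq2 called 0 members, with 1 lower at an unadjusted p under 0.05 in each, and edgeR called 0.0834% of all genes in either direction. At 8 months of age, 2M_8M minus 6M_8M, both again called 0, with 1 lower unadjusted, beside 0.0536% of all genes. Few genes of any kind were called in these differences, while 3364 and 1144 of 16792 had an unadjusted edgeR p under 0.05. Pde10a was at 0.19 (SE 0.19, adjusted p = 0.57) in the former and at 0.23 (SE 0.19, adjusted p = 0.78) in the latter. For the genotype effect, 6M_12M minus 2M_6M, edgeR and DESeq2 called 0 members and neither had any at an unadjusted p under 0.05, beside 0.238% of all genes called by edgeR. There 2104 of 16792 genes had an unadjusted edgeR p under 0.05. The Pde10a value was 0.02 (SE 0.20, adjusted p = 0.98).

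The 10 other tested genes with a phosphodiesterase symbol, Pde6d among them, were counted in the same way. In the genotype effect 4 of their 50 tests were higher and 2 lower, a share no larger than the 10.3% higher and 9.48% lower of all gene tests. In the repressor effect 1 was higher and 0 lower in edgeR, against 2.84% higher and 3.65% lower of all gene tests, with 2 higher and 2 lower at an unadjusted p under 0.05. Pde11a, a dual-substrate enzyme, was the one that passed in at least 3 paradigms of either comparison. Its genotype differences were 0.84, 1.07, 0.26, 0.79 and 0.96 (SE 0.25 to 0.38) and those of 2M_6M, 2M_8M and 6M_10M passed, at a level of 0.404 ± 0.214 TPM in WT DBD of 2M_6M.

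The cyclases that make cAMP and cGMP, the proteins that bind them and the receptors upstream were counted from lists of 14, 14 and 12 genes. Among 70 tests of the 14 cyclases in 5 paradigms, 4 were higher and 9 lower in the genotype effect, against 10.3% higher and 9.48% lower of all gene tests. With the repressor in zQ175, 4 were higher and 1 lower, against 2.84% and 3.65%. The genotype counts of the list lay near the shares of all genes. Adcy5, the main adenylyl cyclase of medium spiny neurons, fell in 5 of 5 paradigms, by 0.89, 0.74, 0.62, 0.71 and 0.75 (SE 0.07 to 0.15), and rose with the repressor in 2M_6M and 2M_8M, at 0.74, 0.41, 0.35, 0.14 and 0.46 over the 5. Npr2, a natriuretic peptide receptor that makes cGMP, rose in the genotype effect in 4 paradigms, with values of 0.32, 0.37, 0.27, 0.41 and 0.28. Adcy2 had repressor values of 0.24, 0.11, 0.13, -0.09 and 0.11, and that of 2M_6M passed.

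Among 70 tests of the 14 effectors of cAMP and cGMP, 12 were higher and 3 lower in the genotype effect, against 10.3% higher and 9.48% lower of all gene tests. With the repressor 3 were higher and 2 lower, near the 2.84% and 3.65% of all gene tests. In the remaining difference 13 were higher and 1 lower, against 6.21% and 6.11%. Prkar1b, a regulatory subunit of protein kinase A, rose in 5 of 5 paradigms by 0.21, 0.33, 0.31, 0.39 and 0.39 (SE 0.04 to 0.10). Its repressor values in zQ175 were -0.03, -0.18, 0.05, -0.11 and -0.07, and that of 2M_8M passed. Prkar2a, another regulatory subunit, had genotype values of 0.13, 0.34, 0.20, 0.45 and 0.36 and passed in 2M_8M, 6M_10M and 6M_12M. Prkg2, a cGMP-dependent kinase, had repressor values of -0.0035, 0.08, 0.17, 0.51 and 0.27 and passed in 6M_10M.

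In the list of receptors, G proteins and kinase targets, 8, 8, 5, 8 and 7 of 12 fell in the genotype effect, 36 of 60 tests, and 5 of 60 rose, against 9.48% lower and 10.3% higher of all gene tests. With the repressor in zQ175, 21 of 60 were higher and 4 lower, against 2.84% and 3.65%. In the remaining difference 27 were lower and 1 higher, against 6.11% and 6.21%. Median log2 differences of the list in the genotype effect were -0.39, -0.29, -0.24, -0.34 and -0.37, against that range of -0.01 to 0.03 over all genes. Adora2a, the adenosine receptor of indirect pathway neurons, fell by 0.96, 0.97, 0.75, 0.98 and 1.06 and had repressor values of 0.81, 0.82, 0.45, 0.47 and 0.52, all past the threshold except that of 6M_8M. Drd1, the dopamine receptor of direct pathway neurons, fell by 0.76, 0.72, 0.71, 0.82 and 0.93. Arpp21, a protein kinase A substrate, was lower with the repressor, at -0.95, -0.60, -0.45, -0.94 and -1.16, past the threshold except in 6M_8M. The 12 medium spiny neuron markers share Adcy5, Drd1, Drd2, Gng7 and Ppp1r1b with these lists. In the genotype effect 10, 9, 10, 11 and 9 of the markers were lower, beside 11.5%, 9.37%, 5.15%, 12.3% and 9.14% of all genes. With the repressor in zQ175, where 8.8%, 4.16%, 0.0438%, 0.562% and 0.676% of all genes were higher, 10, 9, 0, 7 and 5 of the markers were. Their summed medians in zQ175 nZFP were 12643, 11253, 8289, 9504 and 10146 CPM, against 7843, 8109, 7404, 7916 and 8126 CPM in zQ175 DBD and 14512, 13869, 13373, 14649 and 14863 CPM in WT nZFP. In zQ175 Estop the medians were 9467, 8659, 8120, 8517 and 9049 CPM, above zQ175 DBD in each paradigm, so the rise was smaller against that control. The marker sums moved with Pde10a and Pde1b, and their part in the member values was not tested.

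Genes with patterns most like each member were taken from 12713 genes by Pearson's r over the 30 group means of log2 CPM, which share libraries and the genotype contrast, so r is a description with no p. For Pde10a they were Itga5 (r = 0.988), Anks1b (r = 0.987) and Itga9 (r = 0.986), and for Pde1b Drd1 (r = 0.985), Lrrc10b (r = 0.984) and Ngef (r = 0.982). Pde7b was nearest to Arel1 (r = 0.969), Cap1 (r = 0.963) and Hecw2 (r = 0.962), the Pde2a-locus entry to Rap1gap (r = 0.964), Ppp2r2c (r = 0.946) and Cd4 (r = 0.944) and Pde8b to Slc9a3r1 (r = 0.951), Pja2 (r = 0.949) and Grin2c (r = 0.942). Among the members that were not lower in zQ175, Pde1a was nearest to Trhde (r = 0.956), Baiap3 (r = 0.947) and Pnma3 (r = 0.943), Pde4d to Map3k9 (r = 0.963), Sarm1 (r = 0.960) and Dlc1 (r = 0.957), Pde4b to Gpr158 (r = 0.920), Tgfa (r = 0.916) and Pde7b (r = 0.900) and Pde1c to Plce1 (r = 0.847), Ap3b2 (r = 0.827) and Sorl1 (r = 0.819). Values of r were highest for Pde10a and Pde1b and lowest for Pde1c.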

How the data were processed

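PolyA RNA of 233 striatal libraries was sequenced with a stranded protocol, per the labels' protocols. RSEM and GRCm38 are named, per the submitters' processing notes, without versions. The aligner, annotation release and use of strand in counting go unnamed (not given in the sources used here). The deposited expected counts (90.3% whole numbers) were rounded. The authors' second deposited table, titled FPKM, has columns that each sum to 1000000 and was read as TPM, so levels between genes were compared in TPM rather than FPKM. Of 41135 entries, 6 vector entries (at most 0.669% of a library) stayed out of library sizes and tests, and 40254 of 41129 genes had a symbol.

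The test was edgeR's robust quasi-likelihood F-test (version 4.0.16, R 4.3.3) after filterByExpr and TMM scaling, with sex as a covariate, in 1 fit of 6 groups per paradigm (15673, 15786, 16000, 15840 and 15523 genes) and 1 fit of 30 groups (16792 genes) for differences between paradigms. P-values were adjusted by the method of Benjamini and Hochberg over all genes tested, and the threshold was 0.05. SE is the log2 fold change over the square root of F, and CPM uses TMM library sizes. Alternatives were DESeq2 1.42.0, DESeq2 size factors (RLE) in edgeR, no low-count filter, no sex term, hemisphere, length index, replicate number or mouse as added terms, Estop for DBD, fits of only the groups compared, and leaving out the libraries that stood apart or went against their label. Scripts were tested on simulated data. Lengths come from the GENCODE M21 annotation and promoters from RefSeq.

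Mouse numbers in the labels pair hemispheres, and replicate numbers were not taken as a pairing. The main fits held no term for the mouse, so they treated the hemispheres of a mouse as independent. The members, the gene lists and the naming rule were chosen with earlier results of these data known. All 9 members are named; other phosphodiesterases are named where they passed in at least 3 paradigms of the genotype or repressor effect, and up to 2 genes per pathway list and comparison by smallest geometric mean p. For likeness, the 3 genes of highest r are named (prior count of 2, mean of at least 1 CPM, no predicted-gene symbol).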

Additional observations from a re-analysis of the deposited data

Results flagged for a closer look

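Single libraries lay far from the rest of their group, by Dixon's gap criterion, in 33 of 270 tests of 9 members in 30 groups, and chance marks about 1 in 20 such groups. These values came from 14 libraries, and 4 of the 14, those that stood apart by the length index, held most of them. WT DBD R2 of 6M_10M was the lowest of its group for 7 members: Pde10a at 817, Pde1c at 17.5, the Pde2a-locus entry at 419, Pde4b at 115, Pde4d at 12.6, Pde7b at 138 and Pde8b at 127 CPM. In zQ175 DBD R3 of 2M_6M the lowest values were Pde10a at 421, Pde1c at 14.9, the Pde2a-locus entry at 245, Pde4b at 106, Pde4d at 10.1 and Pde7b at 51.1 CPM, and in zQ175 nZFP R2 of 6M_10M Pde10a at 398, the Pde2a-locus entry at 352, Pde4b at 104, Pde4d at 6.62, Pde7b at 97.5 and Pde8b at 108 CPM. For WT nZFP R8 of 6M_8M they were Pde4b at 119, Pde4d at 15.0 and Pde7b at 194 CPM.

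The library labelled zQ175 nZFP R5 in 6M_8M, whose vector transcripts went against its label, was the highest of its group for Pde1b at 1437 and Pde8b at 159 CPM. The highest Pde1a value of its group was 93.3 CPM in WT nZFP R3 of 6M_8M, where the cortical projection neuron markers summed to 18.5 CPM and the next highest Pde1a value was 37.9 CPM. Pde10a was highest at 1905 CPM in WT nZFP R7 of 2M_8M, and lowest at 847 CPM in zQ175 Estop R7 of 2M_6M and at 1356 CPM in WT nZFP R2 of 6M_10M. The remaining single values were the lowest of their groups: Pde1b at 1457 CPM in WT nZFP R5 of 6M_10M, Pde4b at 123 CPM in WT nZFP R5 of 2M_8M, Pde1c at 23.0 CPM in zQ175 nZFP R5 and Pde7b at 193 CPM in zQ175 nZFP R1 of 6M_12M, and Pde8b at 156 CPM in WT Estop R1 of 6M_12M.

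Effects that differed between genotypes or paradigms in a test of the difference itself were the interactions of Pde10a (0.73 in 2M_6M and 0.89 in 2M_8M, log2) and of Pde1b (0.48 and 0.38). The repressor effect of 2M_6M exceeded that of 6M_10M by 0.60 for Pde10a, 0.37 for Pde1b and 0.33 for the Pde2a-locus entry, and none of these 3 passed without the libraries that stood apart.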

How the results depend on the processing

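Counts of called members in the genotype effect (30 with DBD, 28 with Estop) and in the remaining difference (18) moved by less than 1.5 times under each alternative that was run on them, and no member's log2 difference reversed from a call in one direction to the other. The repressor effect in zQ175 had 9 calls and 4 with Estop in place of DBD. In WT the 2 calls were 1 without the low-count filter, with the mouse block and in fits of only the groups compared, and 0 with Estop. The 4 interaction calls were 10 with the length index as covariate. The 2 control virus calls were 0 without the filter and in fits of only the groups compared, 1 without the sex term, with the mouse block and without the libraries that stood apart, and 5 with the length index. The 3 differences between paradigms were 1 without the filter, 0 with the mouse block, without the libraries that stood apart and in fits of only the groups compared, and 6 with the replicate block. The cause of these changes was not tested. Of 396 member values, the length index gained 41 calls and lost 4, whereas RLE size factors and the hemisphere term changed 1 each, both gained.

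With the replicate number as a block, 382 of 396 calls stayed as they were, 1 was lost and 13 were gained, among them the Pde10a repressor effect of 6M_12M (0.38, adjusted p = 1.3e-04). No genotype pair shared a mouse, and 3 or 4 pairs of each repressor comparison did. Deviations from the group means correlated in these same-mouse pairs with median r of 0.06, 0.53, -0.01, 0.07 and 0.21 in zQ175. In WT the median r was 0.09, 0.23, 0.11, 0.11 and 0.43. The 2 libraries of such a mouse often carried different numbers. In no comparison did every same-numbered pair correlate above 0.1 in its deviations from the group means, so the numbers were not taken as a pairing. In 6M_12M, however, 5 of 7 pairs of the genotype effect, 6 of 7 of that effect with Estop and 6 of 7 of the repressor effect in WT exceeded 0.1, with median r of 0.42, 0.43 and 0.32 against -0.17, -0.10 and -0.12 for other pairs, so a source shared by number there was not settled. The mouse block, run on 252 values, lost 9 and gained 4 calls, which the report gives, and it changed no other call. All 9 members passed the low-count filter in each fit. Among the 3 members with the lowest CPM, SEs of the genotype effect reached 0.28 for Pde1a and 0.19 for Pde4d, above the 0.16 of Pde10a, but 0.12 for Pde1c.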
